A study of Mus musculus with 11 samples.

Results

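The 38 genes described here are interferon-stimulated genes, chosen by symbol from a list and all found among the 37583 genes of the deposited expression table. They were measured by RNA sequencing in mononuclear phagocytes (macrophages, monocytes and dendritic cells), sorted by their EGFP from epididymides of 12 weeks old CX3CR1 EGFP +/- mice. All 11 libraries carry the same genotype and no treatment is named: 4 came from the initial segments (IS), where the epididymis begins, 3 from the caput/corpus, the middle regions, and 4 from the cauda, where sperm are stored. EGFP stands under the control of Cx3cr1, the fractalkine receptor gene, so the sort takes any cell in which that gene is active, and 1 copy of the gene carries the reporter. Cells of 4 epididymides went into each library. The labels do not say which animals these were, so the p-values measure the spread between these libraries, which may in part be technical.

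Type I interferons signal through the receptor of Ifnar1 and Ifnar2 and interferon gamma through Ifngr1 and Ifngr2. Kinases of the JAK family then pass the signal on to transcription factors. STAT2 and IRF9 belong to the complex ISGF3, which binds the interferon-stimulated response element (ISRE), while the response to interferon gamma runs through the gamma-activated site (GAS). Many of the induced genes restrict viruses, and macrophages keep a low level of many of them without infection.

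Promoters of 6 members that the results name are shown first, since promoters can hold the elements through which interferon acts. RefSeq promoter windows of build GRCm38.p6, from 250 bases before to 50 bases after a gene's start, were found for 30 of the 38 members, as 36 windows. On either strand, the letters GAAANNGAAA (the core of an ISRE) or their complement TTTCNNTTTC stood in the windows of 17 of the 30 members (56.7%), against 3.99% of all 27025 genes with a window. The letters TTCNNNGAA (a GAS) stood in 9 of the 30 (30%), against 9.55% of all. The 2 motifs can overlap, and a match is a match of letters, not a bound site. In the 6 sequences below, each 280 bases long and ending 30 bases after the start, the capitals mark these matches, 5′ to 3′ on the gene's strand.
Ifitm3: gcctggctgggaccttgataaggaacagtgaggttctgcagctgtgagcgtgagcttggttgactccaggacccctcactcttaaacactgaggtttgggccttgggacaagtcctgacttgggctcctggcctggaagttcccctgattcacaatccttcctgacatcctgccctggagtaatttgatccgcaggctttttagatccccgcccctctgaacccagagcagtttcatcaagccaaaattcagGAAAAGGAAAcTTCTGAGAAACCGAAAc
Ifitm2: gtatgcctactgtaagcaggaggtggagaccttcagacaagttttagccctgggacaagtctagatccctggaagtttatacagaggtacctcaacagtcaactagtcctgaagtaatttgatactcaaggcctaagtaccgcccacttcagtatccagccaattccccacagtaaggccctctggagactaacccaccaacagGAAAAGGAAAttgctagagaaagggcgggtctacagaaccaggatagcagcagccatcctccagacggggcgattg
Oas3: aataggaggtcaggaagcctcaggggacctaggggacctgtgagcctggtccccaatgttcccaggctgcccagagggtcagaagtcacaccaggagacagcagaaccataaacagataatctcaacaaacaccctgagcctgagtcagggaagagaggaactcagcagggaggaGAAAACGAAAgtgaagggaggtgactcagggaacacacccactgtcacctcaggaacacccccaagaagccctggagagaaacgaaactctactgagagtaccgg
Isg15: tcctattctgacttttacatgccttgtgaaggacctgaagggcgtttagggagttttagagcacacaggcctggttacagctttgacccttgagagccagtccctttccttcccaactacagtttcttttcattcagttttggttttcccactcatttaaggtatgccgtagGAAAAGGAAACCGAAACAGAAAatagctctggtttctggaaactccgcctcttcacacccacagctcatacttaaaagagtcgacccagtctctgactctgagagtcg
Bst2: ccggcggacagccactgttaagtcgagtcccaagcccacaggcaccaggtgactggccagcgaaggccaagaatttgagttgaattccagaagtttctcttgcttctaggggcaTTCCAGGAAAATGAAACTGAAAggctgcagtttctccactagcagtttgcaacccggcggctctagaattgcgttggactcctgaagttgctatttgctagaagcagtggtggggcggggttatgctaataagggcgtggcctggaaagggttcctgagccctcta
Irf1: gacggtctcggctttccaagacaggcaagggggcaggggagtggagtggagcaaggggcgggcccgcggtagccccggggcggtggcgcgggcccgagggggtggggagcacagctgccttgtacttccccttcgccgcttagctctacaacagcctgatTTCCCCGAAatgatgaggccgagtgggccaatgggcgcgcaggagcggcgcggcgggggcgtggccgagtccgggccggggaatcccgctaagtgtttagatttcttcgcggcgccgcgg

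Ifitm3 (chr7:141010715-141010994, minus strand) had both ISRE matches just past its start, 2 and 19 bases after it, and a GAS match 13 bases after it that overlaps the second of them. Its neighbour Ifitm2 (chr7:140955932-140956211, minus strand) had 1 ISRE match, 46 bases before the start. Oas3 (chr5:120777630-120777909, minus strand) had 1 ISRE match, 75 bases before its start. Isg15 (chr4:156200789-156201068, minus strand) had a run of 3 overlapping ISRE matches, at 78, 72 and 66 bases before the start. In Bst2 (chr8:71537443-71537722, minus strand) an overlapping GAS match and 2 ISRE matches stood 136, 130 and 124 bases before the start. The window of Irf1 that is shown (chr11:53769764-53770043, plus strand) held a GAS match 90 bases before the start and no ISRE match. A second window of Irf1 (chr11:53770223-53770522) held no match of either kind and is not shown. Genes with and without a match in this window were found both among the members that differed between regions and among those that did not. All sequences shown hold a match. Xaf1, which was called between regions, and Irf7 had windows without a match and are not shown. Mx1 and Zbp1, also called, had no window.

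Libraries held 16873180 to 31737132 reads on genes. Levels are given as the authors' RPKM, which are reads per length of the gene and per size of the library, so that levels of different genes can be set side by side. Cauda replicate 1 stood apart, with reads on 13434 genes, where the other 10 libraries had reads on 17053 to 18837. By their titles 5 libraries belong to a series Maj3 and 6 to a series Maj4, each of which spans the regions; the labels do not say what the names stand for, and the series was a term of the model. For 3 samples (replicate 2 of IS and replicate 1 of both caput/corpus and cauda) the deposited count file and the named column of the RPKM table held different reads. The reads of the IS replicate 2 column equal the count file filed under caput/corpus replicate 1. Those of the caput/corpus replicate 1 column equal the file filed under cauda replicate 1, and those of the cauda replicate 1 column equal no file. The files as filed thus place the first and second of these read sets in another region than the columns do. The values follow the named columns, and the calls of IS against the other regions are also given for the 8 samples without such a conflict and for the count files as filed. Csf1r, the receptor of the growth factor CSF1, is listed here as a macrophage marker and was expressed in every region. It had mean levels (± SD) of 630 ± 55.9 RPKM over the 4 IS libraries, 426 ± 96.0 over the 3 of caput/corpus and 287 ± 80.0 over the 4 of cauda. Cx3cr1, the gene on whose reporter the cells were sorted, stood at 212 ± 30.5, 112 ± 31.8 and 83.6 ± 13.4 RPKM.

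All 38 members passed the filter on low counts, and 36 of them stood at 1 RPKM or more in all 11 libraries. The exceptions, Mx2 and Ifi44, fell below that in cauda replicate 1. The levels were very uneven. Ifitm3 alone stood at a mean of 1220 RPKM over the 11 libraries, Ifitm2 at 537 and Bst2 at 322, while Irf7, the next, stood at 114. Ifitm2 and Ifitm3 together made up 37.4% to 44.3% of the summed RPKM of the 38 members in the IS libraries, and 50.2% to 62.7% in the others. The sum over all 38 was 2129 to 2841 RPKM in IS, 3268 to 4140 in caput/corpus and 3328 to 4179 in cauda, with no overlap between IS and the other regions. Without Ifitm2 and Ifitm3 it was 1216 to 1779, 1362 to 1823 and 1395 to 1667 RPKM, and the 3 regions overlapped. The mean was lowest in IS for 24 of the 38 members (63.2%), against 34.3% of the 15116 genes tested.

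**Figure D1:**
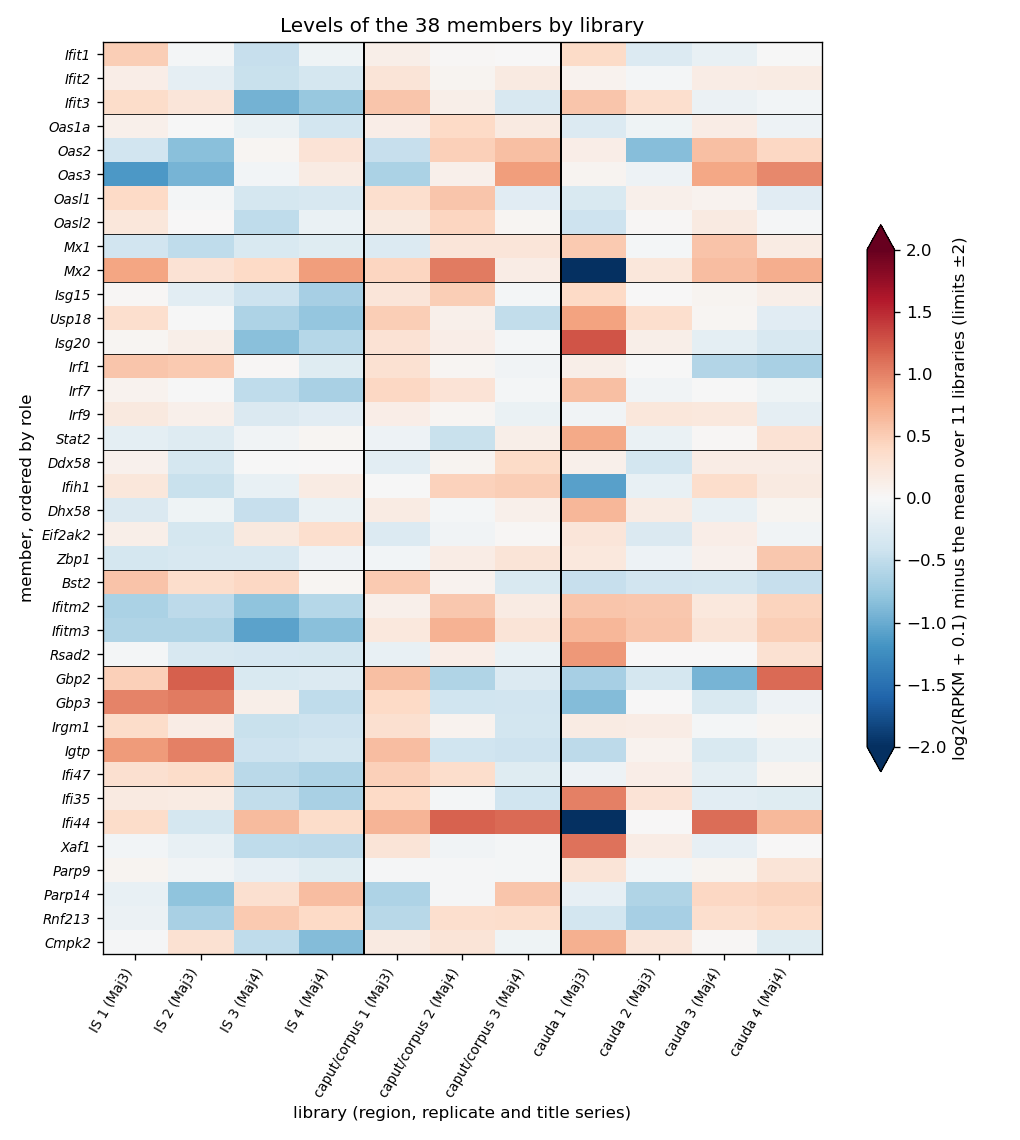
Levels of the 38 members in the 11 libraries, as log2(RPKM + 0.1) minus each member's mean over the libraries; rows are members by role, columns are libraries by region, with the title series in brackets. Ifitm2 and Ifitm3 are blue in all 4 IS columns and red in the others, and Mx2 and Ifi44 are dark blue in cauda replicate 1 alone.

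The main difference between IS and caput/corpus lay in Ifitm3 and Ifitm2, which encode small membrane proteins that hinder the entry of viruses through endosomes. Ifitm3 (ENSMUSG00000025492) stood at 736, 737, 531 and 628 RPKM in IS replicates 1 to 4, at 1294, 1807 and 1339 in caput/corpus replicates 1 to 3, and at 1768, 1649, 1347 and 1582 in cauda replicates 1 to 4. Every IS library lay below every library of the other regions, which overlapped with each other. The level in IS was 2.32-fold lower than in caput/corpus (log2 fold change -1.22 ± 0.16 (SE), adjusted p = 0.00388, edgeR) and 2.43-fold lower than in cauda (log2 -1.28 ± 0.15, adjusted p = 0.000372). Between cauda and caput/corpus the difference was 0.06 ± 0.16 (adjusted p = 0.932).

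Ifitm2 (ENSMUSG00000060591) followed the same order. It stood at 326, 351, 291 and 340 RPKM in IS, at 543, 739 and 567 in caput/corpus and at 744, 736, 586 and 690 in cauda. IS was again below all other libraries, by 0.93 ± 0.14 on the log2 scale against caput/corpus (log2 fold change -0.93, edgeR adjusted p = 0.00620) and by 1.08 ± 0.13 against cauda (log2 -1.08, adjusted p = 0.000447). The ratio of Ifitm2 to Ifitm3 was 0.409 to 0.423 in caput/corpus and 0.421 to 0.446 in cauda, and 0.443 to 0.547 in IS. The higher end of the IS range, 0.547 and 0.541, came from replicates 3 and 4. The transcripts of the pair are alike in sequence, and reads that align to both are left out of the counts, so their levels are uncertain in part. Ifitm1, another gene of that family which is no member, was low, at 3.06 ± 1.33 RPKM in IS, 6.25 ± 3.10 in caput/corpus and 5.43 ± 3.96 in cauda, and was not called.

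These were the 2 members of 38 (5.26%) called between IS and caput/corpus, both higher in caput/corpus. Of all genes tested, 3.78% were called in this comparison with 2.98% higher in caput/corpus and 0.794% higher in IS, so the members' share was near that of the genes at large. The other 36 had log2 fold changes from -0.60 to 0.49 and adjusted p from 0.0945 to 0.998, and none differed by 2-fold. The median of the 38 log2 fold changes was -0.33, with 28 below 0 and 10 above, while the median of all genes tested was 0.02. Groups did not overlap, with IS lower, for 6 members (Dhx58, Ifi44, Ifitm2, Ifitm3, Oas1a and Zbp1), or 15.8%, against 7.51% of all genes; they did so with IS higher for none, against 6.82%. The 2 calls stood in the 8 libraries without a conflict (Ifitm3 log2 -1.41 ± 0.17, adjusted p = 0.00438) and without cauda replicate 1, but not with the count files as filed (Ifitm3 log2 -0.72 ± 0.38, adjusted p = 0.680).

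**Figure D2:**
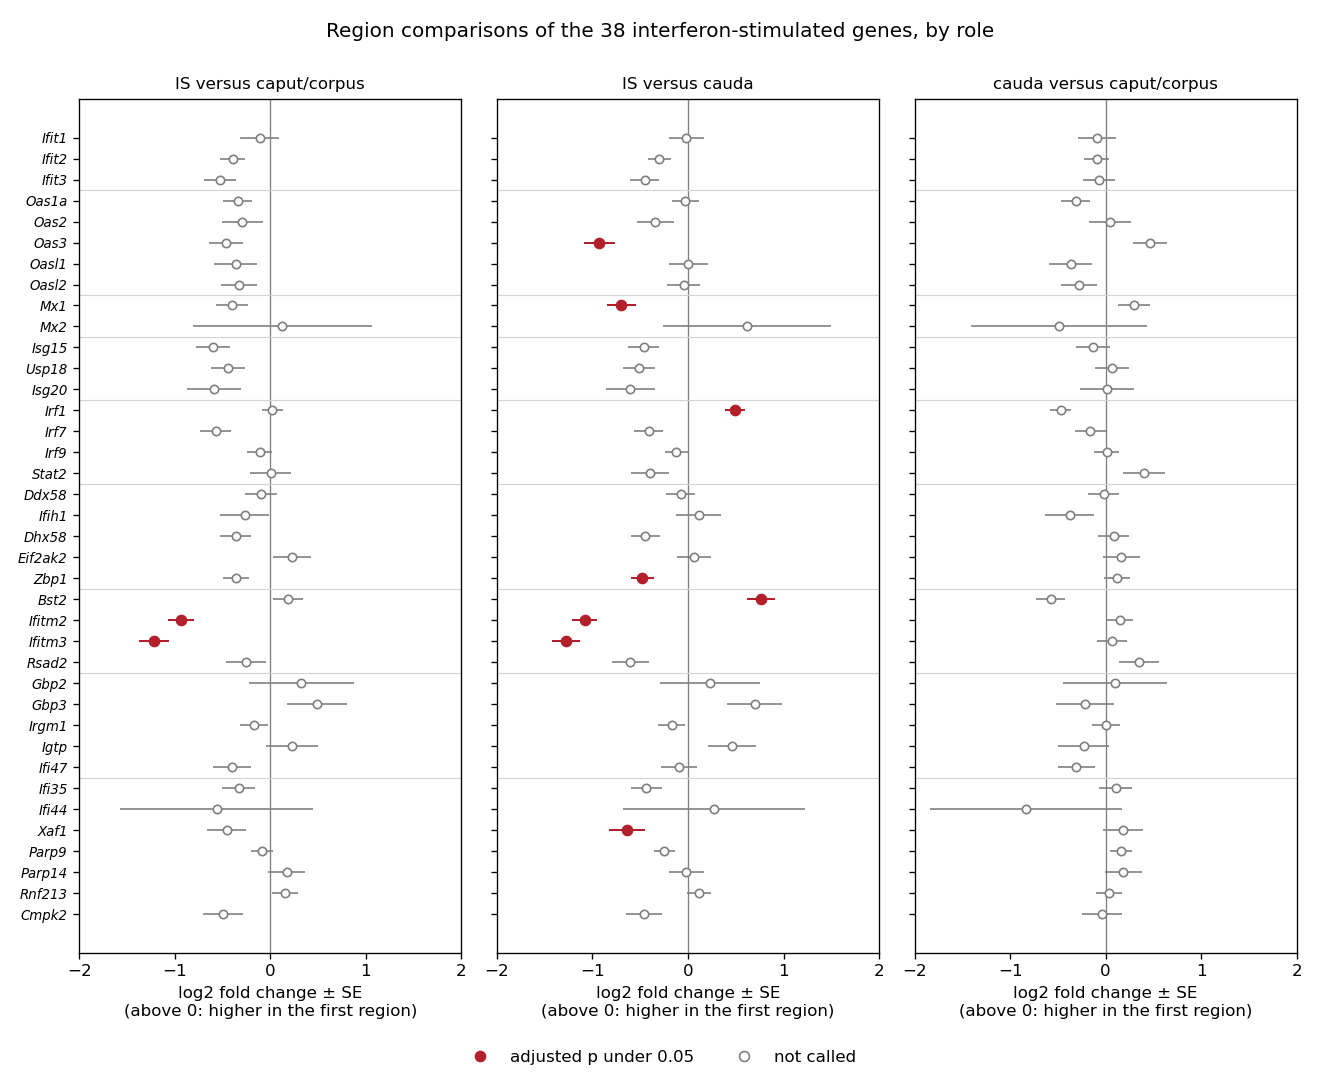
Log2 fold change of each member with its standard error in the 3 region comparisons, ordered by role; filled red points have an adjusted p under 0.05 (edgeR, over 15116 genes). Ifitm2 and Ifitm3 are the only filled points in the first panel, 8 are filled in the second and none in the third.

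Markers of other cell types that a sort on Cx3cr1 could hold also differed in these contrasts. Of 8 monocyte markers, 6 were lower in IS than in caput/corpus and 7 lower than in cauda; their summed level was 236 to 493 RPKM in IS, 999 to 1433 in caput/corpus and 1399 to 1964 in cauda. Of 8 markers of conventional dendritic cells, 5 and 6 were lower in IS, with sums of 189 to 381, 833 to 1160 and 756 to 1639 RPKM. All 7 mast cell markers were lower in IS in both comparisons (15.5 to 57.0, 418 to 576 and 565 to 2261 RPKM), and no gene of these 3 lists was at 0 in a whole region. Immediate early and stress genes, which respond to handling of cells, were lower in IS for 11 and 12 of 14 (3165 to 6966, 7018 to 10165 and 4585 to 12653 RPKM). Epithelial markers went the other way, with 7 of 12 higher and 1 lower in IS against caput/corpus and 11 higher against cauda (954 to 2300, 231 to 459 and 11.5 to 28.5 RPKM). The 7 were Lcn8, Lcn9, Gpx5, Rnase10, Adam28, Cst8 and Ovch2, each with a mean under 1 RPKM in cauda. Crisp1, Krt8, Krt18 and Epcam were not called against caput/corpus (edgeR adjusted p = 0.237, 0.952, 0.738 and 0.727). How far these sums follow the amount of epithelium was not tested. Of the 10 macrophage markers, 2 and 8 were higher in IS (9187 to 14451, 6572 to 12505 and 5855 to 8315 RPKM). Neutrophil markers summed to at most 0.699 RPKM, with S100a9 and Ly6g at 0 throughout, and lymphocyte markers to at most 77.7 RPKM. The part of these cells and genes in the members' differences was not tested. In pooled cells such as these, fewer cells of a type and less RNA per cell cannot be told apart.

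Between IS and cauda, 8 members of 38 (21.1%) were called, against 16.5% of all genes. Lower in IS were 6 (15.8%, against 9.06% of all genes higher in cauda): Ifitm3, Ifitm2, Oas3, Mx1, Zbp1 and Xaf1. Higher in IS were Bst2 and Irf1 (5.26%, against 7.40%). The median of the 38 log2 fold changes was -0.21 with 27 below 0, and that of all genes was 0.05. Groups did not overlap for 5 members lower in IS (13.2%, against 7.95% of all genes), namely Ifitm2, Ifitm3, Mx1, Rsad2 and Zbp1, and for Bst2 higher in IS (2.63%, against 10.6%). Like the Ifitm pair, these calls fell away with the count files as filed, where edgeR called no member and 4 genes in all (3098 genes at an unadjusted p under 0.05). In the 8 libraries without a conflict, 6 of the 8 calls remained, without Xaf1 and Zbp1.

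Bst2 (ENSMUSG00000046718), which encodes tetherin, a protein that holds budding virus particles at the cell surface, ran against the Ifitm pair. It stood at 461, 394, 414 and 319 RPKM in IS, at 446, 326 and 252 in caput/corpus and at 224, 239, 239 and 224 in cauda. The cauda libraries lay close to each other and below all other libraries, while IS and caput/corpus overlapped. Bst2 was 1.70-fold higher in IS than in cauda (log2 0.76 ± 0.15, edgeR adjusted p = 0.00570). The differences of 0.19 ± 0.16 between IS and caput/corpus (adjusted p = 0.718) and -0.58 ± 0.16 between cauda and caput/corpus (adjusted p = 0.163) were not called by edgeR. DESeq2 called the latter. The difference between IS and cauda was 0.76 ± 0.15 (adjusted p = 0.0113) in the 8 libraries without a conflict and 0.44 ± 0.22 (adjusted p = 0.288) with the files as filed, and was not called within Maj3 (adjusted p = 0.123) or Maj4 (adjusted p = 0.0886) alone. Bst2 also marks plasmacytoid dendritic cells: of the 6 of 8 markers of these cells that could be tested, Siglech was higher in IS than in cauda (log2 2.29 ± 0.48, adjusted p = 0.00895) and the others were not called. The sum of the 8 was 70.6 to 130 RPKM in IS, 48.8 to 87.6 in caput/corpus and 15.4 to 39.2 in cauda. It largely followed Siglech, with means of 87.4, 39.8 and 17.0 RPKM, while Tcf4 had means of 12.6, 11.7 and 11.6 RPKM. Klk1 was at 0 in caput/corpus and cauda, and the part of such cells in the level of Bst2 was not tested.

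Irf1 (ENSMUSG00000018899), a transcription factor induced above all by interferon gamma, also stood higher in IS than in cauda. It was at 75.6, 74.3, 52.3 and 43.5 RPKM in IS, at 63.9, 52.8 and 48.9 in caput/corpus and at 56.1, 51.1, 34.2 and 32.9 in cauda. The regions overlapped, and the Maj3 libraries were higher than the Maj4 libraries within each region. With the series in the model the difference between IS and cauda was 0.49 ± 0.10 on the log2 scale (edgeR adjusted p = 0.00851). Within Maj3 alone it was 0.53 ± 0.13 and within Maj4 alone 0.52 ± 0.16, with adjusted p = 0.236 and 0.0999 in these smaller sets. Without the series in the model the fold change was as large, at 0.49 ± 0.23, but was not called (adjusted p = 0.237). It was 0.53 ± 0.11 (adjusted p = 0.0146) in the 8 libraries without a conflict and 0.54 ± 0.13 (adjusted p = 0.0969) with the files as filed. IS and caput/corpus differed by 0.02 ± 0.11 (adjusted p = 0.977), and cauda and caput/corpus by -0.47 ± 0.11 (adjusted p = 0.107), which DESeq2 called.

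**Figure D3:**
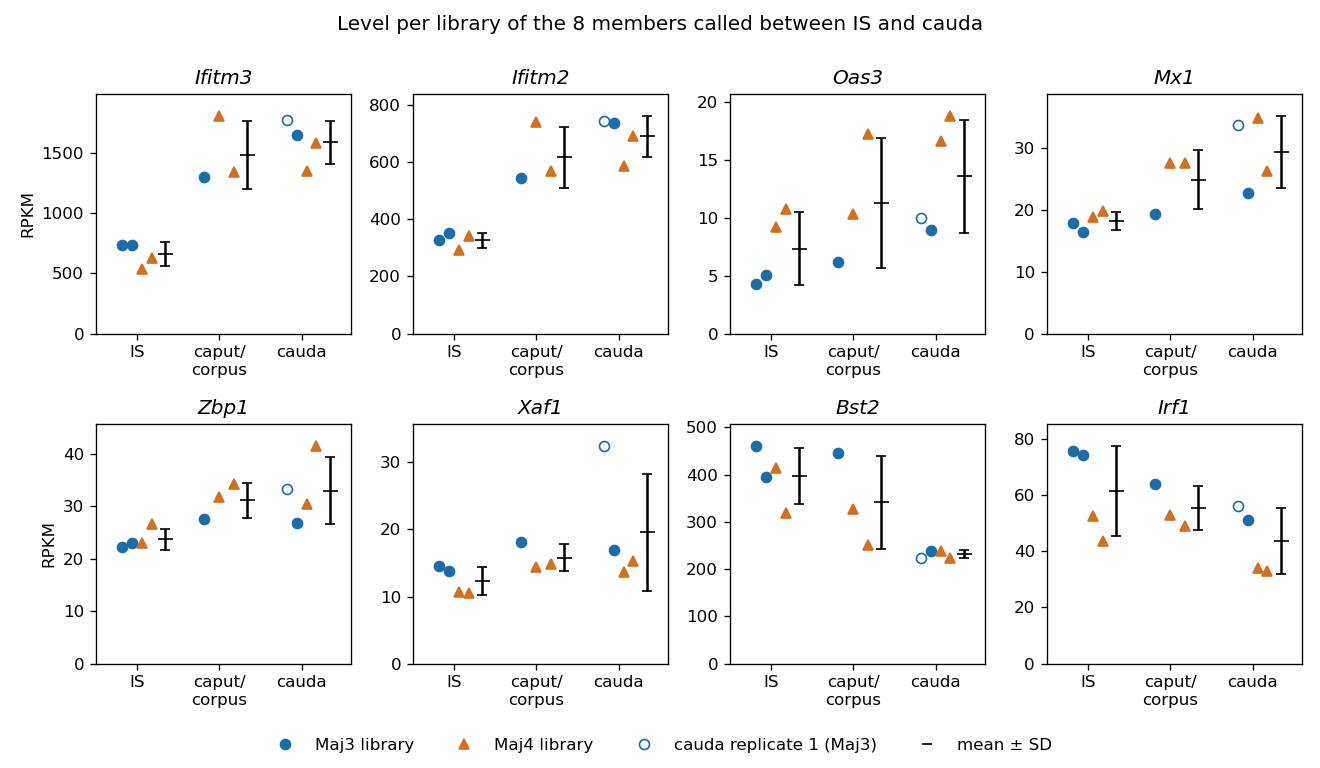
RPKM of the 8 members called between IS and cauda in each library, with the mean ± SD of each region beside the points; blue circles are Maj3 libraries, orange triangles Maj4, and the open circle is cauda replicate 1. IS lies below cauda without overlap for Ifitm3, Ifitm2, Mx1 and Zbp1 and above it for Bst2, while Oas3 and Irf1 are split by series and the high open circle for Xaf1 is at 32.5 RPKM.

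Of the enzymes and sensors that act on viral nucleic acid inside the cell, Oas3, Mx1 and Zbp1 were lower in IS than in cauda. Oas3 (ENSMUSG00000032661), which makes the 2-5A messenger that switches on RNase L, stood at 4.31, 5.01, 9.24 and 10.8 RPKM in IS, at 6.21, 10.3 and 17.3 in caput/corpus and at 9.97, 8.93, 16.6 and 18.8 in cauda. Within each series the cauda libraries were above the IS libraries, but the 2 IS libraries of Maj4 overlapped with the cauda libraries of Maj3. The log2 fold change was -0.93 ± 0.16 (edgeR adjusted p = 0.00362), at -0.97 ± 0.25 within Maj3 and -0.82 ± 0.26 within Maj4, where it was not called (adjusted p = 0.245 and 0.110). The call was also lost without the series in the model (adjusted p = 0.198) and with the files as filed (log2 -0.58 ± 0.24, adjusted p = 0.211), and stood in the 8 libraries without a conflict (log2 -0.90 ± 0.20, adjusted p = 0.0165). Against caput/corpus it was -0.46 ± 0.18 (adjusted p = 0.226).

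Mx1 (ENSMUSG00000000386), of the dynamin-like GTPases that block viral nucleoproteins, stood at 17.8, 16.5, 18.9 and 19.8 RPKM in IS, at 19.3, 27.6 and 27.6 in caput/corpus and at 33.7, 22.7, 34.9 and 26.2 in cauda. The lowest cauda library was above the highest IS library. IS was lower than cauda by 0.70 ± 0.15 on the log2 scale (log2 -0.70, edgeR adjusted p = 0.0105), and lower than caput/corpus by 0.40 ± 0.16 (log2 -0.40, adjusted p = 0.264), which was not called. The difference from cauda was -0.55 ± 0.14 (adjusted p = 0.0315) in the 8 libraries without a conflict. It was not called with the files as filed (log2 -0.27 ± 0.21, adjusted p = 0.513), in Maj3 alone (log2 -0.67, adjusted p = 0.373) or in Maj4 alone (log2 -0.65, adjusted p = 0.0726). Many laboratory strains carry a defective Mx1 allele, and the labels do not give the strain.

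Zbp1 (ENSMUSG00000027514), a sensor of Z-form nucleic acid, stood at 22.3, 23.0, 23.0 and 26.7 RPKM in IS, at 27.6, 31.7 and 34.2 in caput/corpus and at 33.3, 26.7, 30.4 and 41.6 in cauda. Neither of the other regions overlapped with IS, though the highest IS library and the lowest cauda library were close to each other. The difference from cauda (log2 -0.48 ± 0.12, edgeR adjusted p = 0.0252) was lost when IS replicate 1, 2 or 3 was left out, and when cauda replicate 4 was (highest adjusted p = 0.0822). That from caput/corpus was not called (log2 -0.36 ± 0.13, adjusted p = 0.214).

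Xaf1 (ENSMUSG00000040483), which antagonises the apoptosis inhibitor XIAP, was the weakest of the calls. Its levels were 14.6, 13.8, 10.6 and 10.5 RPKM in IS. In caput/corpus they were 18.1, 14.4 and 14.9 RPKM, in cauda 32.5, 16.9, 13.6 and 15.3 RPKM. Only cauda replicate 1, at 32.5 RPKM, stood far from the rest, and IS overlapped with cauda. The log2 fold change between IS and cauda was -0.64 ± 0.19 (edgeR adjusted p = 0.0446). Without cauda replicate 1 it shrank to -0.37 ± 0.10 while its error shrank too (adjusted p = 0.0240), and the call was lost when any of 9 other single libraries was left out, with adjusted p up to 0.122.

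No member was called between cauda and caput/corpus by edgeR, against 0.615% of all genes (0.0331% higher in cauda and 0.582% higher in caput/corpus). Of the 38, 3 members had an unadjusted p under 0.05, and DESeq2 called Bst2 and Irf1. The 38 log2 fold changes ran from -0.83 to 0.47 with a median of 0.01, 20 above 0 and 18 below, and the median of all genes was -0.02. The groups did not overlap for Bst2 alone, with caput/corpus higher (2.63%, against 6.52% of all genes), and for no member with cauda higher (against 3.04%). The changes with the widest errors were those of Ifi44 and Mx2. Ifi44 (ENSMUSG00000028037), which encodes a cytoplasmic protein, had no read in cauda replicate 1. Its other cauda libraries stood at 5.44, 11.9 and 8.58 RPKM, those of IS at 7.01, 4.24, 8.47 and 6.98, and those of caput/corpus at 8.77, 12.4 and 12.0 RPKM. Mx2 (ENSMUSG00000023341), the second Mx gene, had 3 reads (0.0438 RPKM) in cauda replicate 1 and 7.37, 9.70 and 10.5 RPKM in the other cauda libraries. Its IS libraries stood at 10.9, 7.71, 8.38 and 11.3 RPKM and those of caput/corpus at 8.51, 13.0 and 7.01. For both genes that 1 library lay below all others, and the rest of the regions overlapped except for Ifi44 between IS and caput/corpus. Their fold changes in every region comparison had standard errors of 0.88 to 1.01 and were not called. Without that library no Ifi44 or Mx2 call between regions arose either.

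Isg15, Ifit3 and Irf7 were among the 6 members with the highest mean level, and edgeR called none of them between regions in the fit of all 11 libraries. DESeq2 called Isg15 and Irf7 lower in IS than in caput/corpus, and limma on log2(RPKM + 1) called Isg15 lower in IS than in cauda. Isg15 (ENSMUSG00000035692), a ubiquitin-like protein that is joined to other proteins and also secreted, stood at 78.5, 66.7, 58.2 and 48.9 RPKM in IS, at 91.1, 109 and 75.7 in caput/corpus and at 102, 77.5, 80.6 and 84.0 in cauda. IS replicate 1 overlapped with the lowest libraries of the other regions. The log2 fold changes of IS were -0.60 ± 0.18 against caput/corpus (edgeR adjusted p = 0.107) and -0.46 ± 0.16 against cauda (adjusted p = 0.0828).

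Irf7 (ENSMUSG00000025498), the factor that drives type I interferon genes once induced, stood at 117, 110, 78.2 and 71.1 RPKM in IS, at 148, 135 and 108 in caput/corpus and at 169, 106, 111 and 105 in cauda. All 3 regions overlapped. The log2 fold change of IS was -0.57 ± 0.16 against caput/corpus (edgeR adjusted p = 0.0945) and -0.41 ± 0.15 against cauda (adjusted p = 0.0928). Without cauda replicate 1 the first became a call (-0.55 ± 0.14, adjusted p = 0.0378), as it did without cauda replicate 2 (-0.59 ± 0.12, adjusted p = 0.0348), where the difference from cauda was called too.

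Ifit3 (ENSMUSG00000074896), which with Ifit1 and Ifit2 binds foreign RNA ends, was called between the series but not between regions. It stood at 109, 99.6, 43.6 and 49.6 RPKM in IS, at 124, 91.0 and 66.9 in caput/corpus and at 123, 106, 77.7 and 80.9 in cauda. In each region the Maj3 libraries were the highest. Within Maj4 the IS libraries, at 43.6 and 49.6 RPKM, lay below all libraries of the other regions. Within Maj3 IS and cauda overlapped. The log2 fold change of IS was -0.53 ± 0.17 against caput/corpus (edgeR adjusted p = 0.136) and -0.45 ± 0.15 against cauda (adjusted p = 0.0739).

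The remaining members are given by role. Ifit1 and Ifit2 were not called, and with Ifit3 their log2 fold changes of IS ran from -0.53 to -0.11 against caput/corpus and from -0.45 to -0.02 against cauda. In the OAS family Oas1a, Oas2, Oasl1 and Oasl2 were not called, although all 5 members of the family were below 0 against caput/corpus (-0.46 to -0.29). Usp18, the protease that removes ISG15 and damps the receptor, and Isg20, an RNA exonuclease, were at -0.44 and -0.59 against caput/corpus and at -0.51 and -0.60 against cauda, with edgeR adjusted p of 0.0598 or more. DESeq2 and limma (with either pseudocount) called Usp18 lower in IS than in cauda. Irf9 and Stat2, partners in ISGF3, and the RNA sensors Ddx58 (RIG-I), Ifih1 (MDA5) and Dhx58 (LGP2) were not called, nor was Eif2ak2 (PKR), the kinase that stops translation when it binds double-stranded RNA. Rsad2 (viperin) was at -0.60 ± 0.19 against cauda (edgeR adjusted p = 0.0590), which DESeq2 called. Its 4 IS libraries, 8.75 to 10.9 RPKM, lay below all cauda libraries, 11.2 to 20.6 RPKM. Ifi35, Parp9, Parp14, Rnf213 and Cmpk2 were not called either.

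The GTPases that interferon gamma induces, which attack the vacuoles of intracellular microbes, differed between libraries of 1 region. The sum of the 5 members of this role was 249 and 274 RPKM in IS replicates 1 and 2, 235 in caput/corpus replicate 1 and 192 in cauda replicate 4, and 121 to 174 in the other 7. Of the 4 high libraries, 3 belong to Maj3, and for 2 of them the count file and the named column held different reads. Igtp stood at 58.8, 65.4, 24.4 and 25.2 RPKM in IS, so that replicates of 1 region differed by more than 2-fold. None of Gbp2, Gbp3, Irgm1, Igtp and Ifi47 was called between regions by edgeR in the fit of all libraries. DESeq2 called Gbp3 higher in IS than in cauda, and edgeR called Gbp2 so once cauda replicate 4 was left out. The log2 fold changes of IS were -0.40 to 0.49 against caput/corpus and -0.17 to 0.70 against cauda.

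More members were called between the title series than between any pair of regions. With region in the model 14 of 38 (36.8%) differed between Maj4 and Maj3, against 20.3% of all genes. Higher in Maj4 were 4 (10.5%, against 10.6%): Rnf213, Oas3, Parp14 and Oas2. Higher in Maj3 were 10 (26.3%, against 9.73%): Irf1, Ifit3, Ifi35, Usp18, Irgm1, Igtp, Cmpk2, Isg20, Irf7 and Xaf1. This comparison was added after the data had been seen. With the count files as filed 12 members were called, 11 of them among these 14, and with the 8 libraries without a conflict 8 were.

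Rnf213, a very large ubiquitin ligase, gave the clearest split. It stood at 5.40 to 7.96 RPKM in the 5 Maj3 libraries and 10.9 to 12.5 in the 6 Maj4 libraries, whatever the region (log2 0.88 ± 0.11, edgeR adjusted p = 0.000611). Parp14, an ADP-ribosyltransferase, stood at 6.57 to 10.4 against 11.3 to 17.6 RPKM (log2 0.88 ± 0.16, adjusted p = 0.00376). Oas3 rose by 1.05 ± 0.14 from Maj3 to Maj4 (adjusted p = 0.000989). In the other direction Ifit3 fell by 0.79 ± 0.13 (log2 -0.79, adjusted p = 0.00280) and Irf1 by 0.57 ± 0.09 (log2 -0.57, adjusted p = 0.00175). The series did not overlap for Rnf213, Parp14, Ifi35, Ifit3 and Irgm1: 2 of 38 higher in Maj4 (5.26%, against 6.75% of all genes) and 3 higher in Maj3 (7.89%, against 5.33%). The share of reads that did not align uniquely also followed the series, at 27.6% to 35.8% in the count files of Maj3 and 12.5% to 14.7% in those of Maj4. So did the share outside any gene (7.75% to 11.3% against 18.6% to 24.8%) and the reads on genes (27034390 to 31737132 against 16873180 to 22544035). The 4 members higher in Maj4 were 5371 to 16895 bases long, and the 10 higher in Maj3 were 1743 to 5806. Ifih1 (8789 bases) and Rsad2 (7136) were long and not called. The part of these features in the differences was not tested. The Ifitm pair and Bst2 were not called between the series, at log2 -0.14 ± 0.13 for Ifitm3, -0.05 ± 0.11 for Ifitm2 and -0.23 ± 0.12 for Bst2. Leaving out 1 library moved the count of calls to between 8 and 17, and Rnf213, Oas3, Parp14, Oas2, Irf1, Ifit3, Ifi35 and Usp18 were called in all 11 such fits.

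**Figure D4:**
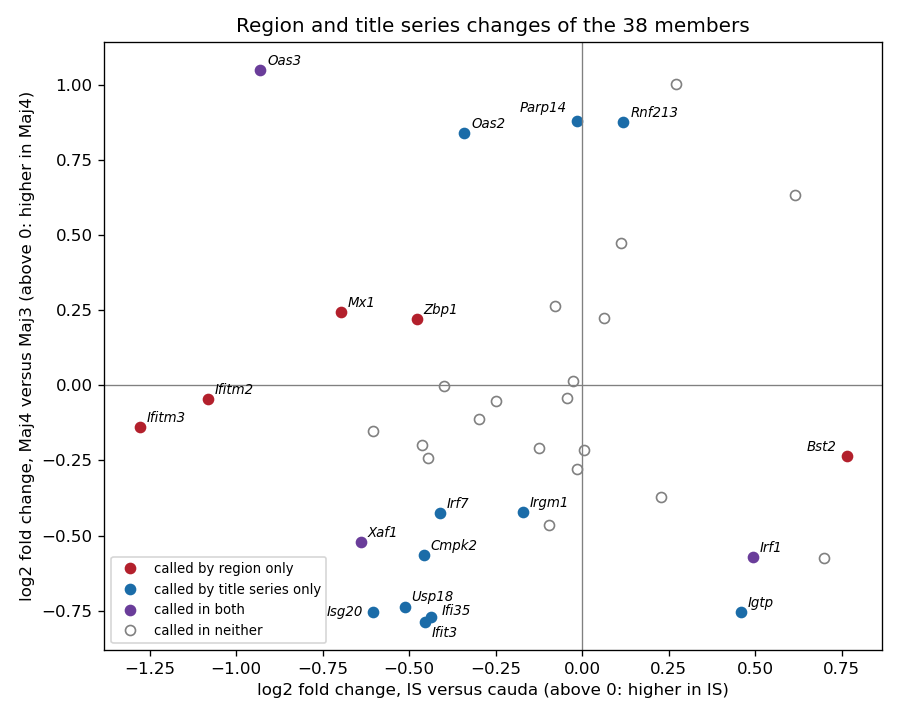
Log2 fold change of the 38 members between IS and cauda (horizontal) and between Maj4 and Maj3 (vertical), from the same edgeR fit; colours give the comparison in which a member was called. Ifitm3, Ifitm2 and Bst2 lie far from 0 on the horizontal axis and near 0 on the vertical, Oas3, Irf1 and Xaf1 are called in both, and Rnf213 and Parp14 lie far from 0 on the vertical axis alone.

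The genes upstream of the members were measured too. Of 17 interferon genes 11 had no read in any library, and Ifnb1 and Ifng alone could be tested, without a call. Ifnb1 stood at 1.71 ± 0.512 RPKM in IS, 0.310 ± 0.309 in caput/corpus and 0.182 ± 0.202 in cauda (log2 3.19 ± 1.31 between IS and cauda, edgeR adjusted p = 0.133); it was singled out after its values had been seen. Receptor subunits were well expressed. Ifnar2 was higher in IS than in cauda, at 80.6 ± 7.00 against 54.3 ± 7.81 RPKM (log2 0.56 ± 0.12, adjusted p = 0.0107), as were Ifngr2 (log2 0.50 ± 0.14, adjusted p = 0.0330) and Il10rb, shared by the lambda interferon and interleukin-10 receptors (log2 0.63 ± 0.11, adjusted p = 0.00283). Ifnar1 (log2 0.30 ± 0.10, adjusted p = 0.0683), Ifngr1 (log2 -0.23 ± 0.08, adjusted p = 0.0825) and Ifnlr1, which was under 1 RPKM, were not called.

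Of 13 genes that carry the signal, Irf2, a factor that competes with IRF1 for its sites, was lower in IS than in caput/corpus (log2 -0.53 ± 0.12, edgeR adjusted p = 0.0424) and cauda (log2 -0.55 ± 0.11, adjusted p = 0.00826). The kinase Jak2 (log2 -0.82 ± 0.20, adjusted p = 0.0198) and Irf5 (log2 -0.46 ± 0.11, adjusted p = 0.0201) were lower in IS than in cauda. The other 10 were not called. Of 11 genes of the sensing routes upstream of interferon, Tlr7 (log2 0.70 ± 0.17, adjusted p = 0.0203) and Tmem173, or STING (log2 0.49 ± 0.10, adjusted p = 0.00769), were higher in IS than in cauda. Myd88 was lower (log2 -0.40 ± 0.11, adjusted p = 0.0337).

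A list of 48 further interferon-induced genes, of which 46 could be tested, showed both directions. Against caput/corpus none was higher in IS and 6 were lower: Ifi27l2a, Ifi205, Ms4a4c, Slfn5, Psmb8 and Samhd1. Against cauda 14 were lower in IS, the same 6 with Ifi203, Ifi30, Sp100, Phf11d, Tap1, Daxx, Helz2 and Slfn2, and 5 were higher: Cxcl10, Iigp1, Gbp7, Ifi27 and Fcgr1. Ifi27l2a, a gene of the ISG12 family, stood at 75.8 ± 9.06 RPKM in IS, 171 ± 32.3 in caput/corpus and 166 ± 25.2 in cauda (log2 -1.16 ± 0.18 and -1.13 ± 0.16, edgeR adjusted p = 0.00661 and 0.00121). Cxcl10, a chemokine that draws T cells, stood at 48.8 ± 5.92, 34.04 ± 8.22 and 17.6 ± 6.10 RPKM, and was higher in IS than in cauda (log2 1.48 ± 0.25, adjusted p = 0.00313). The median log2 fold change of the 46 was -0.15 against caput/corpus and -0.07 against cauda. No gene of the receptor, signalling, sensing or further lists was called between cauda and caput/corpus.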

How the data were processed

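RNA of EGFP+ cells was sequenced in 11 libraries. Per the labels, the SMARTer v4 kit and a HiSeq2500 instrument were used. STAR, HTSeq, edgeR and the mouse build mm9 are named in the submitters' processing notes, without roles or versions. The authors deposited whole read counts per gene, not stranded per the file names, and 1 table of RPKM normalized to effective library size. RPKM was multiplied by the deposited gene length and divided by the smallest such product above 0 in its column, which was taken as 1 read. This gave whole reads for 100% of values (tolerance 0.001). These recovered reads were tested, a choice made with earlier marker levels of these data known. Of the 11 read sets, 10 equal a deposited count file. For cauda replicate 1, which equals none, no count file checks this step. The planned test on counts was kept.

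edgeR 4.0.16 (R 4.3.3; filterByExpr by region, TMM, quasi-likelihood, region and title series) was fitted to all 11 libraries and 15116 genes. A gene was called at a Benjamini-Hochberg adjusted p under 0.05, and SEs come from the F statistic. The code was tested on simulated data. The 38 members and all lists were chosen with earlier results of these data known. Values per library are given for members called between regions, the 6 with the highest mean and the 3 with the largest fold change per region comparison. Of the other pathway genes, those called and the receptors are named. Alternatives were other size factors, no filter, a replicate block, no series term, each series alone, other read sources, DESeq2 1.42.0, limma 3.58.1 and each library left out.

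Reads that align to more than 1 place are left out of HTSeq counts, so genes with near copies (Ifitm2, Ifitm3, Oas1a, Ifit3, Gbp2, Gbp3) are uncertain. Without strand, genes cannot be told apart from their neighbours either where their exons overlap. Members that overlap another gene include Ifitm2 (with Gm45717), Igtp (Irgm2), Irf9 (Rnf31), Parp9 (Dtx3l), Irf7 (Phrf1) and Irf1 (Gm17334). No coordinates of build mm9 are given, and the promoters of 8 members were not analysed here.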

Additional observations from a re-analysis of the deposited data

Results flagged for a closer look

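In groups of 4 libraries, a library was singled out where its gap to the nearest other, as a share of the group's range, was above Dixon's 95% critical value. This was asked of 38 members in IS and in cauda, 76 groups in all, and 5 stood out. Chance alone gives about 5% of groups, which is about as many. Irf7 was highest in cauda replicate 1, at 168.7 RPKM against 105 to 111 in the other cauda libraries. Ddx58 was lowest in cauda replicate 2, at 9.11 RPKM against 12.6 to 13.1. Zbp1 was highest in IS replicate 4, at 26.7 RPKM against 22.3 to 23.0, and Rsad2 in IS replicate 1, at 10.9 RPKM against 8.75 to 8.96. Gbp2 was highest in cauda replicate 4, at 45.5 RPKM against 10.9 to 16.2.

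The count file filed under IS replicate 2 equals no RPKM column and enters none of the main comparisons. It held 30383072 reads on genes, of which 169970 fell on the 38 members. That is 5594 CPM, within the range of 4262 to 6191 in the 11 read sets used. In this file 6 members lay above all 11 read sets, namely Ifit1 (168 CPM), Ifit2 (545), Isg15 (131), Oasl1 (90.8), Ifih1 (112) and Irf1 (319), and Zbp1 and Parp9 lay below. Of all genes tested, 5.30% lay above and 12.0% below.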

How the results depend on the processing

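No called fold change of a member turned its sign under an alternative; several uncalled ones near 0 did, as given below. Between IS and caput/corpus the 2 calls became 0 with the Maj3 libraries alone and with the count files as filed, 4 with DESeq2, and 2 to 4 when 1 library was left out (4 without cauda replicate 1, which added Irf7 and Xaf1). Between IS and cauda the 8 calls became 4 without the series term (which lost Irf1, Oas3, Xaf1 and Zbp1), 2 with the Maj4 libraries alone, 0 with Maj3 alone and 0 with the files as filed, and 6 to 12 when 1 library was left out. Between cauda and caput/corpus DESeq2 called 2 members; each library left out gave 0. Between the series 8 of 14 calls remained with the 8 libraries whose sources match, and 8 to 17 were called with 1 library left out.

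Ifitm2 and Ifitm3 were called in 20 of 22 alternatives in both IS comparisons, Bst2 and Mx1 in 19, Oas3 and Irf1 in 18, Zbp1 in 13 and Xaf1 in 7. Other size factors turned the sign only of members whose log2 fold change was near 0 (Ifit1, Oas1a, Oasl2 and Parp14 between IS and cauda, Irf9 and Irgm1 between cauda and caput/corpus, and Stat2 between the series).

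A replicate block of series and label number gave 2, 10 and 0 members called in the 3 region comparisons, adding Rsad2 and Usp18 between IS and cauda, and 398, 2362 and 41 genes in all. The 10 pairs that share series and number correlated at -0.01 to 0.39, in deviations from the region means with the series left in. Pairs of the same series and another number correlated at 0.02 to 0.18. Of 11 libraries, 6 correlated best with their own number. These values do not settle whether the numbers are pairs. The main fit did not use them, and the block is given as an alternative.

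Over all genes the counts for IS against caput/corpus, IS against cauda, and cauda against caput/corpus were 571, 2488 and 93. They were 1262, 3595 and 637 with DESeq2, 233, 1481 and 83 without the series, 457, 1144 and 28 with Maj4 alone and 0, 30 and 5 with Maj3 alone. With the files as filed they were 0, 4 and 0 (1166, 3098 and 992 at an unadjusted p under 0.05). limma on log2(RPKM + 1) gave 934, 3068 and 143, and on log2(RPKM + 0.1) 807, 3008 and 188. The 8 matching libraries gave 954, 2409 and 52, no filter 566, 2260 and 184, and the set without cauda replicate 1 gave 1353, 3124 and 205. The cause of these shifts was not tested. Which source is right for the 3 samples in conflict is not stated in the sources used here. With the named columns the summed epithelial markers did not overlap between regions. They were at 954 to 2300 RPKM in IS, 231 to 459 in caput/corpus and 11.5 to 28.5 in cauda. As filed, a read set with a sum of at least 954 RPKM stands under caput/corpus, and a set with at least 231 RPKM under cauda. The 5 to 6 libraries per series limit the tests within a series.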
